A study of Rattus norvegicus with 15 samples.

Results

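Transcript levels of 34 genes of the ATF4 amino acid response and the unfolded protein response were described in cultured rat aortic smooth muscle cells (SMC). The genes were taken by symbol from a table of 32623 gene entries, and all 34 were found. They were kept as 16 genes of the ATF4 and serine synthesis branch, 4 stress sensors and their factors, and 14 genes of the endoplasmic reticulum (ER) chaperone branch. All 34 passed a filter of at least 1 TPM in at least 3 of the 15 libraries, as did 12207 entries in all. RNA-seq was made of 4 groups of aortic SMC, all starved for 72 h in medium without serum or insulin after growth in 10% serum with 1.6 mM glutamine. Myocd-LSD1 (4 libraries) is a line carrying a fusion of myocardin, the smooth muscle coactivator, with the histone demethylase LSD1. Per the series design, the fusion was used to take the H3K4me2 mark off SMC genes. Myocd-LSD1NF (4 libraries) is a line whose suffix NF the labels do not explain. PDGF-BB (3 libraries) is wild type SMC that were starved for 48 h and then given 30 ng/ml of human recombinant PDGF-BB, a mitogen of SMC, for the last 24 h. Ctrl SMC (4 libraries) is untreated wild type SMC. Neither the promoter of the fusions, nor whether a line is 1 clone, nor whether controls received the PDGF-BB solvent is stated in the labels. What a fusion does and what else sets a line apart from Ctrl SMC therefore cannot be told apart.

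ATF4 is a transcription factor whose mRNA is translated when the initiation factor eIF2 is phosphorylated, by GCN2 in amino acid shortage or by PERK under ER stress. Its targets include enzymes that make serine, glycine and asparagine, amino acid transporters and tRNA synthetases, and feedback genes such as Trib3, Ddit3 and Chac1. The unfolded protein response proper runs through IRE1, which splices Xbp1 mRNA, and ATF6, which is cut free of the membrane, and raises chaperones, disulfide isomerases and degradation factors of the ER. SMC in culture secrete much collagen and elastin and so load the ER with folding work. Since ATF4 is controlled by translation, ATF6 by cleavage and XBP1 by splicing, gene-level mRNA values do not measure the activity of these factors.

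The DNA before the transcription starts is described for both branches, and the search for elements used no expression value. The background of tested genes and the choice of the Chac1 window did use expression. The chaperone branch was drawn up from genes known to be raised through ATF6 and XBP1, whose elements were then searched. The counts are therefore a description and no independent support for the split into branches. Windows from 250 bases before to 50 bases after the start were taken from RefSeq on the rat assembly GRCr8, and 29 of the 34 genes matched by symbol. The ER stress response element (ERSE), known to be bound by ATF6 and XBP1 together with NF-Y, was searched on both strands as CCAAT, any 9 bases and CCACG. ERSE-II was searched as ATTGG, any 1 base and CCACG. At least 1 of these lay in 8 of 11 chaperone windows and in that of Xbp1, and in 0 of 16 ATF4 branch windows. The share was 0.25% among 8809 windows of tested genes (22 windows, those of the members included) and 0.117% among all 33469 windows. In the matches below, read on the strand of the motif, the fixed bases are in capitals.
Hspa5 ERSE: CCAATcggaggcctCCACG
Hsp90b1 ERSE, first: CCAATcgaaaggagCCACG
Hsp90b1 ERSE, other: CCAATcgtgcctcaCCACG
Calr ERSE: CCAATcagggtcgaCCACG
Canx ERSE: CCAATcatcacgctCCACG
Dnajc3 ERSE: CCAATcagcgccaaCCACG
Creld2 ERSE: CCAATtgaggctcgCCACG
Xbp1 ERSE: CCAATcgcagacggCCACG
Herpud1 ERSE-II: ATTGGgCCACG

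The C/EBP-ATF element, bound by ATF4 with a C/EBP partner, was searched on both strands as TGATGNAAN. It lay in 3 of 16 ATF4 branch windows (Chac1, Trib3 and Nupr1) and in 1 of 11 chaperone windows (Herpud1), against 2.03% of windows of tested genes and 3.97% of all windows. The narrower TGATGCAAT, every match of which is also a match of TGATGNAAN, lay in that of Nupr1 among these genes and in 0.17% of windows of tested genes. TGACGTGG, which ends in the reverse complement of CCACG and can overlap an ERSE, lay in that of Hyou1 among these genes and in 0.976% of windows of tested genes.
Chac1 C/EBP-ATF: TGATGcAAc
Trib3 C/EBP-ATF: TGATGtAAa
Nupr1 C/EBP-ATF: TGATGcAAt
Herpud1 C/EBP-ATF: TGATGcAAc

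Whole windows are given for Chac1, an ATF4 target that fell with PDGF-BB, for Hspa5, the chaperone BiP, and for Herpud1, which holds both kinds of element. They are written along each gene's own strand with the matches in capitals. A match is a description of letters and not a bound site, and elements outside the window were not searched. The Chac1 window is chr3:126795881-126796180 (plus strand), that of Hspa5 is chr3:38452766-38453065 (plus strand) and that of Herpud1 is chr19:10614658-10614957 (minus strand).
Chac1: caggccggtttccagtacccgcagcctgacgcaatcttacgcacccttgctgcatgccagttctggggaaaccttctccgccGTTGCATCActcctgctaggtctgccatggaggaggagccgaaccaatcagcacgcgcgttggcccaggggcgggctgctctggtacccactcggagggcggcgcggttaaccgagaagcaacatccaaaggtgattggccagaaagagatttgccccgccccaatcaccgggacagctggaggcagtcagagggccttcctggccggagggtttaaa
Hspa5: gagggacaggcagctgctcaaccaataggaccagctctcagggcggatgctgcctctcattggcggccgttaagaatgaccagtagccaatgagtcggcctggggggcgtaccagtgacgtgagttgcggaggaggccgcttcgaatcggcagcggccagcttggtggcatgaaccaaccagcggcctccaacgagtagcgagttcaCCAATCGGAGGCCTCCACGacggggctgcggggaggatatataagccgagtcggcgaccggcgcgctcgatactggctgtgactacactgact
Herpud1: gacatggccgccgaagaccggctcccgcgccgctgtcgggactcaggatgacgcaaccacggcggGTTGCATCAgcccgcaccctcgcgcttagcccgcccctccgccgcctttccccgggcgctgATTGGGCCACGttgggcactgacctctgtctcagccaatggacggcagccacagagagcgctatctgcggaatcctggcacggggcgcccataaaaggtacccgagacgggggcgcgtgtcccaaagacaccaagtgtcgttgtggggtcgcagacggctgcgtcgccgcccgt

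Values are TPM, a measure of transcript abundance, which are corrected for transcript length, sum to 1000000 in a library and keep no sequencing depth. Between 11306 and 11702 entries reached 1 TPM in a library, and mitochondrially encoded genes took 4.58% to 10.7% of TPM. The labels name no separate cultures behind the libraries, and p-values therefore speak of the variation among these libraries alone, which may be technical. Fold changes are differences in log2(TPM + 1) ± SE from a limma fit over all 15 libraries, a scale that understates the change of low genes. A gene was called at a Benjamini-Hochberg adjusted p under 0.05 over all 12207 genes. The smooth muscle identity of the cells was read from 9 marker genes, all of which passed the filter, such as Acta2 and Tagln. Their TPM summed to 3910.7 to 6808.6 in Myocd-LSD1, 10791.0 to 22254.1 in Myocd-LSD1NF, 6126.7 to 7973.0 in PDGF-BB and 19289.8 to 23886.3 in Ctrl SMC. By gene, 1 of the 9 was higher (1.81) and 8 were lower in Myocd-LSD1 than in Ctrl SMC, where 16.9% and 15.4% of all genes were. With PDGF-BB 0 were higher and 6 lower (all genes 19.2% and 8.5%), and 0 were called in Myocd-LSD1NF. Of the other cell types, 0 of 5 endothelial, 1 of 4 leukocyte and 0 of 3 adipocyte markers passed the filter, with summed TPM of at most 2.13, 1.95 and 0.82 in any library. Kdr, Cdh5, Vwf, Ptprc and Plin1 were at or near 0 throughout, with at most 0.03 TPM in a library. The 5 fibroblast markers, 4 of which passed, summed to 7072.1 to 25206.9 TPM in Myocd-LSD1, 3183.6 to 6913.6 TPM in Myocd-LSD1NF, 3672.8 to 4284.7 TPM in PDGF-BB and 2472.3 to 6934.9 TPM in Ctrl SMC. Nearly all of this was Col1a1, and Dcn stood at 0 to 0.8 TPM. Of the 4 tested fibroblast markers, 1 was higher (2.12) and 1 lower (-3.43) in Myocd-LSD1 than in Ctrl SMC. In Myocd-LSD1NF 0 were higher and 1 was lower (-2.89), and with PDGF-BB 1 was higher (1.52) and 0 lower. The 4 epithelial and mesothelial markers, 2 of which passed, summed to 33.9 to 246.5 TPM in Myocd-LSD1, 16 to 19.6 TPM in Myocd-LSD1NF, 38.3 to 54.4 TPM in PDGF-BB and 18.5 to 23.9 TPM in Ctrl SMC. Mesothelin (Msln) made 7.88 to 189 TPM of it in Myocd-LSD1 and 0.88 to 4.49 TPM in Ctrl SMC, while Krt18 was at 0 in every Myocd-LSD1 library. Myocd averaged 0.31 ± 0.186 TPM in Myocd-LSD1, 34.6 ± 13.7 TPM in Myocd-LSD1NF, 19.7 ± 4.33 TPM in PDGF-BB and 27.8 ± 1.96 TPM in Ctrl SMC (SD, n = 3 for PDGF-BB and 4 otherwise). Whether reads of a fusion's Myocd part enter that row is not stated. The part of these markers in the results below was not tested. These are bulk values, in which fewer cells of a type and less RNA per cell cannot be told apart.

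Within Myocd-LSD1, Myocd-LSD1NF and Ctrl SMC, libraries lay further apart in the ATF4 branch than in the chaperone branch. In PDGF-BB they lay further apart in the chaperone branch. The level of a branch in a library was taken as the median over its genes of log2(TPM + 1) minus the mean of Ctrl SMC. For the ATF4 branch it was 0.17, 0.87, 0.18 and 0.78 in Myocd-LSD1 1 to 4, 0.08, -0.05, -0.10 and 0.56 in Myocd-LSD1NF 1 to 4, -0.57, -0.50 and -0.37 in PDGF-BB 1 to 3, and -0.18, -0.26, -0.21 and 0.67 in Ctrl SMC 1 to 4. Ctrl SMC 4 and Myocd-LSD1NF 4 thus stood near the upper Myocd-LSD1 libraries, and the 3 other controls below 0. For the chaperone branch it was 0.15, -0.03, 0.46 and -0.02 in Myocd-LSD1, 0.03, 0.14, 0.00 and 0.18 in Myocd-LSD1NF, -0.03, 0.08 and 0.42 in PDGF-BB, and 0.02, -0.08, -0.07 and 0.12 in Ctrl SMC. Here Myocd-LSD1 3 and PDGF-BB 3 were the highest.

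Gene by gene, Ctrl SMC 4 was the highest control in 14 of 16 ATF4 branch genes and 10 of 14 chaperone genes, against 22.9% of all tested genes. Myocd-LSD1NF 4 was the highest of its group in 13 of 16 and 8 of 14, against 31.2% of all genes. Myocd-LSD1 2 and 4 were both above Myocd-LSD1 1 and 3 in 12 of 16 ATF4 branch genes and 1 of 14 chaperone genes, against 10.9% of all genes. They were both below in 0 of 16 ATF4 branch genes and 10 of 14 chaperone genes, against 42.4% of all genes. PDGF-BB 3 was the highest of its group in 12 of 16 and 12 of 14, against 44.7% of all genes. These libraries were singled out after their values were seen, and no test was made of the counts. The smooth muscle marker median, on the same scale, was -2.30, -2.52, -1.74 and -2.14 in Myocd-LSD1, -0.08, -0.35, -0.25 and -0.83 in Myocd-LSD1NF, -1.27, -1.50 and -1.60 in PDGF-BB, and -0.05, 0.08, 0.09 and -0.12 in Ctrl SMC, lowest in its group in Myocd-LSD1 2, Myocd-LSD1NF 4, PDGF-BB 3 and Ctrl SMC 4. The epithelial and mesothelial median was 2.73, 3.78, 1.02 and 3.13 in Myocd-LSD1, highest in libraries 2 and 4. The 20 most abundant genes took 15.1%, 19.1%, 14.1% and 18.7% of TPM in Myocd-LSD1 1 to 4, again highest in libraries 2 and 4. The part of these values in the order of libraries was not tested.

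**Figure D1:**
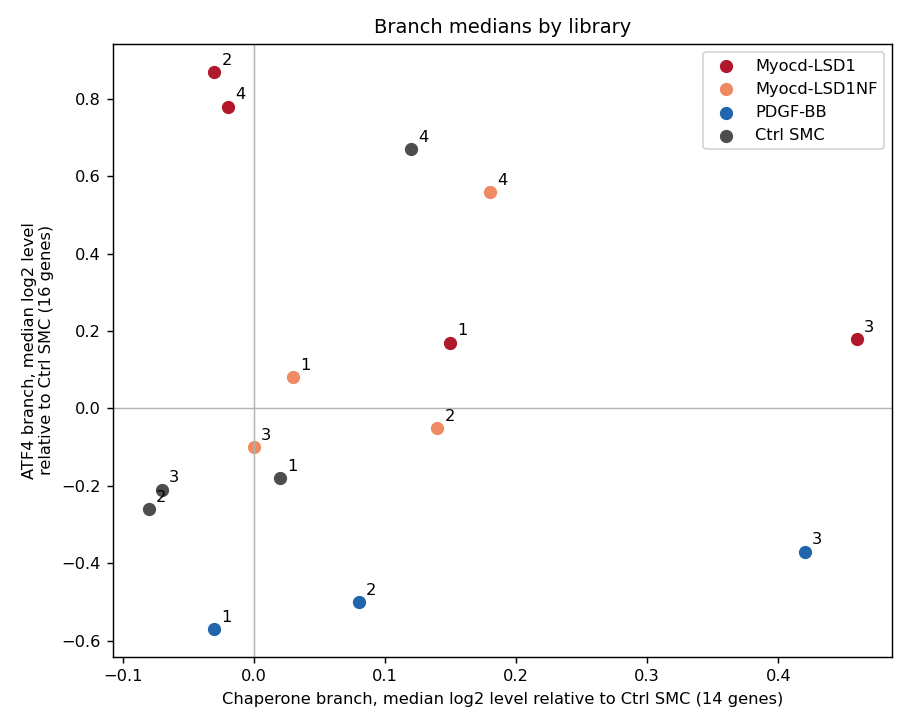
Branch level in each of the 15 libraries, with the chaperone branch (14 genes) on the x axis and the ATF4 branch (16 genes) on the y axis, both as the median log2(TPM + 1) minus the mean of Ctrl SMC; colours mark groups and numbers libraries. Myocd-LSD1 2 and 4 lie at 0.87 and 0.78 on the ATF4 axis near 0 on the chaperone axis, the 3 PDGF-BB libraries lie below 0 on the ATF4 axis, and Ctrl SMC 4 lies at 0.67, apart from the other controls.

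**Figure D2:**
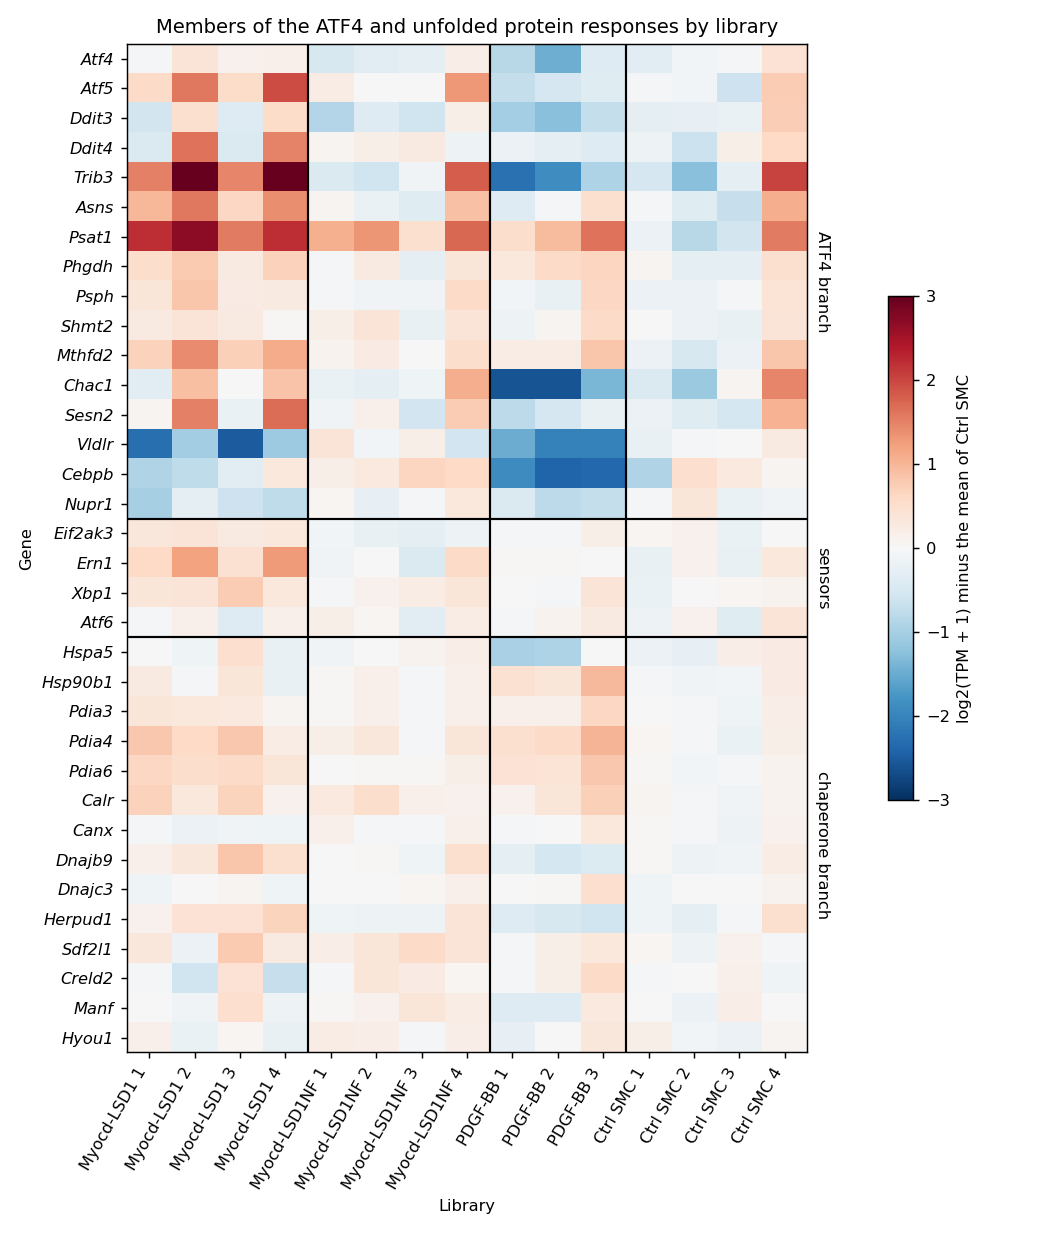
The 34 genes (rows, by branch) in the 15 libraries (columns, by group), coloured by log2(TPM + 1) minus the mean of Ctrl SMC, with values beyond 3 drawn at 3. Trib3 and Psat1 are the reddest rows in Myocd-LSD1, Chac1, Cebpb and Vldlr the bluest in PDGF-BB, and most chaperone rows are pale.

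The first comparison set the Myocd-LSD1 line against Ctrl SMC. In Myocd-LSD1, the serine synthesis enzymes Psat1 and Phgdh, asparagine synthetase (Asns) and the mitochondrial folate enzyme Mthfd2 rose, together with Trib3, Atf5, the sensors Eif2ak3 and Ern1, Xbp1, and the disulfide isomerases Pdia4 and Pdia6. Atf4 itself, Ddit3, Chac1 and the chaperone Hspa5 did not pass the test, and Vldlr and Nupr1 fell. Of the 34 genes 13 rose and 2 fell, or 44.1%, where 32.2% of all tested genes were called. Rises made up 38.2% of the 34 genes, against 16.9% of all genes, and falls 5.88%, against 15.4%.

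In the ATF4 branch 6 of 16 genes rose and 2 fell (37.5% and 12.5%), where 16.9% and 15.4% of all genes did. The median log2 fold change was 0.49, where the median of all genes was 0.03. Atf4 stood at 536.9, 738.4, 612.4 and 623.1 TPM in Myocd-LSD1, against 451, 528.1, 546.1 and 760 TPM in Ctrl SMC. The groups overlapped, and the log2 fold change was 0.15 ± 0.22 (95% interval -0.31 to 0.61, adjusted p = 0.638). Atf5, an ATF4 target and factor of the mitochondrial stress response, stood at 227.5, 459, 222.6 and 588.8 TPM in Myocd-LSD1, against 144.6, 142.6, 98.6 and 259.4 TPM in Ctrl SMC. Only Ctrl SMC 4 reached the Myocd-LSD1 range, and Atf5 rose by 1.17 ± 0.36 (adjusted p = 0.022). Ddit3 encodes CHOP, a factor tied to cell death under lasting ER stress. It had 51, 105, 57.3 and 109.9 TPM in Myocd-LSD1, against 61.6, 63.6, 65 and 126.1 TPM in Ctrl SMC, with overlapping groups and a log2 fold change of 0.02 ± 0.29 (95% interval -0.61 to 0.65, adjusted p = 0.971).

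Serine is made from a glycolytic intermediate by Phgdh, Psat1 and Psph, and turned to glycine by Shmt2 in mitochondria, where Mthfd2 carries the one-carbon unit on. Psat1 had 83.8, 115.6, 52.8 and 84.3 TPM in Myocd-LSD1, against 15.1, 9.21, 11.5 and 53 TPM in Ctrl SMC. Ctrl SMC 1 to 3 were far below every Myocd-LSD1 library, and Ctrl SMC 4 just passed the lowest of them. The rise of Psat1, 2.17 ± 0.44 (adjusted p = 0.00142), was a 3.79-fold ratio of means. Mthfd2 had 71.6, 118.1, 72 and 96.2 TPM in Myocd-LSD1, against 38.6, 31.1, 38.7 and 78.7 TPM in Ctrl SMC. It rose by 0.98 ± 0.25 (adjusted p = 0.00731), again with Ctrl SMC 4 inside the Myocd-LSD1 range. Phgdh, the first enzyme of the path, averaged 125.5 ± 19.4 TPM in Myocd-LSD1 and 85.8 ± 22.7 TPM in Ctrl SMC (SD, n = 4 each) and rose by 0.57 ± 0.18 (adjusted p = 0.0272). Psph averaged 33.1 ± 7.11 TPM in Myocd-LSD1 and 24.4 ± 5.41 TPM in Ctrl SMC, a log2 fold change of 0.43 ± 0.21 (adjusted p = 0.148). Shmt2 averaged 96.8 ± 9.99 and 82.6 ± 17 TPM (0.24 ± 0.18, adjusted p = 0.325), so neither of the last genes passed. Asns, which makes asparagine, had 109.1, 166.6, 85 and 145.2 TPM in Myocd-LSD1, against 52.9, 42.4, 33.6 and 116.9 TPM in Ctrl SMC. It rose by 1.15 ± 0.36 (adjusted p = 0.0222), with Ctrl SMC 4 above 2 of the 4 Myocd-LSD1 libraries.

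Feedback genes of the branch varied widely between libraries. Trib3, a pseudokinase that binds ATF4 and damps it, had 67.5, 205.3, 65.4 and 211.4 TPM in Myocd-LSD1, against 16, 9.05, 18.9 and 97 TPM in Ctrl SMC. Libraries 2 and 4 of Myocd-LSD1 were well above the other libraries of the line, and Ctrl SMC 4 exceeded the lower pair. Trib3 rose by 2.31 ± 0.68 (adjusted p = 0.0167). Chac1, which degrades glutathione, had 44.5, 106.8, 57 and 103.7 TPM in Myocd-LSD1, against 41.8, 25.8, 59.7 and 158.3 TPM in Ctrl SMC. Its log2 fold change was 0.36 ± 0.49 (95% interval -0.69 to 1.40, adjusted p = 0.63), and Ctrl SMC 4 was above all Myocd-LSD1 libraries. Sesn2 and Ddit4, stress inhibitors of mTORC1, averaged 84.1 ± 51.5 and 74.5 ± 52.5 TPM in Myocd-LSD1, and 46.2 ± 27.4 and 42.1 ± 15.4 TPM in Ctrl SMC. Neither passed (adjusted p = 0.201 for Sesn2 and 0.338 for Ddit4).

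Vldlr and Nupr1 moved the other way. Vldlr, a lipoprotein receptor induced under ER stress, had 89.8, 210.5, 75.8 and 203.5 TPM in Myocd-LSD1, against 373.2, 422, 428.3 and 520.1 TPM in Ctrl SMC. No value overlapped, and it fell by 1.72 ± 0.30 (adjusted p = 0.000467). Libraries 2 and 4 were the upper pair within Myocd-LSD1 for Vldlr too, although its level was lower in the line. Nupr1, a small stress-induced chromatin protein, had 727.9, 1198.2, 946.9 and 853.8 TPM in Myocd-LSD1, against 1421.4, 1861.0, 1264.0 and 1351.2 TPM in Ctrl SMC. It fell by 0.67 ± 0.17 (adjusted p = 0.00699) with no overlap. Cebpb, a partner of ATF4 in the C/EBP family, had 71.5, 78.5, 106.6 and 166.7 TPM in Myocd-LSD1, against 72, 191.5, 165.7 and 142.9 TPM in Ctrl SMC, with a log2 fold change of -0.42 ± 0.29 (adjusted p = 0.293).

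Among the sensors 3 of 4 rose. Ern1, which encodes IRE1, had 14.7, 23, 13.2 and 24.3 TPM in Myocd-LSD1, against 7.82, 10.4, 7.83 and 11.9 TPM in Ctrl SMC. All Myocd-LSD1 values lay above all controls, and Ern1 rose by 0.89 ± 0.23 (adjusted p = 0.00692). Xbp1 had 159.2, 160.7, 209.1 and 154.5 TPM in Myocd-LSD1, against 108.1, 124.5, 128.4 and 133.8 TPM in Ctrl SMC. Its groups did not overlap either, and it rose by 0.46 ± 0.13 (adjusted p = 0.0128). Spliced and unspliced Xbp1 were not told apart in these gene-level values. Eif2ak3, which encodes PERK, averaged 29.9 ± 1.1 TPM in Myocd-LSD1 and 23.7 ± 2.27 TPM in Ctrl SMC and rose by 0.33 ± 0.09 (adjusted p = 0.013). Atf6 averaged 44.7 ± 7.64 TPM in Myocd-LSD1 and 46.4 ± 10.7 TPM in Ctrl SMC (log2 fold change -0.04 ± 0.17, adjusted p = 0.888).

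In the chaperone branch 4 of 14 genes rose (28.6%) and 0 fell, where 16.9% and 15.4% of all genes did. The median log2 fold change was 0.18. Hspa5 encodes BiP, the main ER Hsp70 chaperone and the usual readout of ER stress. It had 1196.3, 1090.0, 1683.7 and 1022.2 TPM in Myocd-LSD1, against 1050.5, 994.8, 1355.7 and 1412.6 TPM in Ctrl SMC. The groups overlapped, with Myocd-LSD1 3 above all controls and Ctrl SMC 2 below all Myocd-LSD1 libraries, and a log2 fold change of 0.04 ± 0.21 (95% interval -0.41 to 0.49, adjusted p = 0.907). Pdia4, a disulfide isomerase, had 333.7, 284.7, 331.8 and 221.6 TPM in Myocd-LSD1, against 196.1, 183.7, 164.1 and 214 TPM in Ctrl SMC. It rose by 0.61 ± 0.15 (adjusted p = 0.00572) with no overlap. Pdia6, of the same enzyme family, averaged 642.6 ± 46.2 TPM in Myocd-LSD1 and 446.9 ± 27.5 TPM in Ctrl SMC and rose by 0.52 ± 0.10 (adjusted p = 0.00112). Calr, the lectin chaperone calreticulin, averaged 1647.4 ± 308 and 1188.7 ± 85.5 TPM in these groups and rose by 0.45 ± 0.16 (adjusted p = 0.0368). Dnajb9, a cochaperone of BiP and an Xbp1 target, had 37.1, 42.3, 60.4 and 46.8 TPM in Myocd-LSD1, against 34.3, 29.9, 31.1 and 39.1 TPM in Ctrl SMC. It rose by 0.45 ± 0.15 (adjusted p = 0.0379), with Ctrl SMC 4 above the lowest Myocd-LSD1 library. Herpud1, a factor of ER-associated degradation, had 165.7, 204.1, 203.1 and 242 TPM in Myocd-LSD1, against 137.4, 123.7, 145.4 and 210.3 TPM in Ctrl SMC, and missed the threshold (0.42 ± 0.16, adjusted p = 0.0677). The other 8 genes (Hsp90b1, Pdia3, Canx, Dnajc3, Sdf2l1, Creld2, Manf and Hyou1) had log2 fold changes between -0.22 and 0.30, and none passed.

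The count rested on which libraries were compared. Without Ctrl SMC 2, 7 genes rose and 2 fell (all genes 1856 and 1529). Without Ctrl SMC 4, 14 rose and 2 fell (all genes 1876 and 1905). With Myocd-LSD1 2 and 4 both left out, 6 rose (Psat1, Xbp1, Calr, Pdia4, Pdia6 and Sdf2l1) and 2 fell, where 1755 of all 12207 genes rose and 1229 fell. In the ATF4 branch the rises then shrank to 1 of 16, Psat1 (1.89, adjusted p = 0.0248), while Trib3 was at 1.49 (adjusted p = 0.197), Atf5 at 0.57 (0.29 as adjusted p), Asns at 0.81 (0.202) and Mthfd2 at 0.70 (0.104). Ern1 was then at 0.53 (adjusted p = 0.129) and Eif2ak3 at 0.30 (0.0803). The 4 chaperone genes then called included Pdia4 (0.82, adjusted p = 0.00239) and Calr (0.68, adjusted p = 0.00983). When single libraries were left out, the calls of Psat1, Mthfd2, Ern1, Eif2ak3, Xbp1, Pdia4, Pdia6, Vldlr and Nupr1 held each time. The other 6 calls were each lost without at least 1 library. Trib3 was lost without Myocd-LSD1 2, Myocd-LSD1 4 or Ctrl SMC 2 (adjusted p = 0.0512 to 0.0589). Atf5, Asns and Phgdh were lost without any of Myocd-LSD1 2, Myocd-LSD1 4, Ctrl SMC 2 and Ctrl SMC 3 (0.0501 to 0.0877 in all). Calr was lost without Myocd-LSD1 1 or 3 or Ctrl SMC 1, 2 or 3 (0.0575 to 0.108), and Dnajb9 without Myocd-LSD1 3 or 4 or Ctrl SMC 1, 2 or 3 (0.0662 to 0.114).

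**Figure D3:**
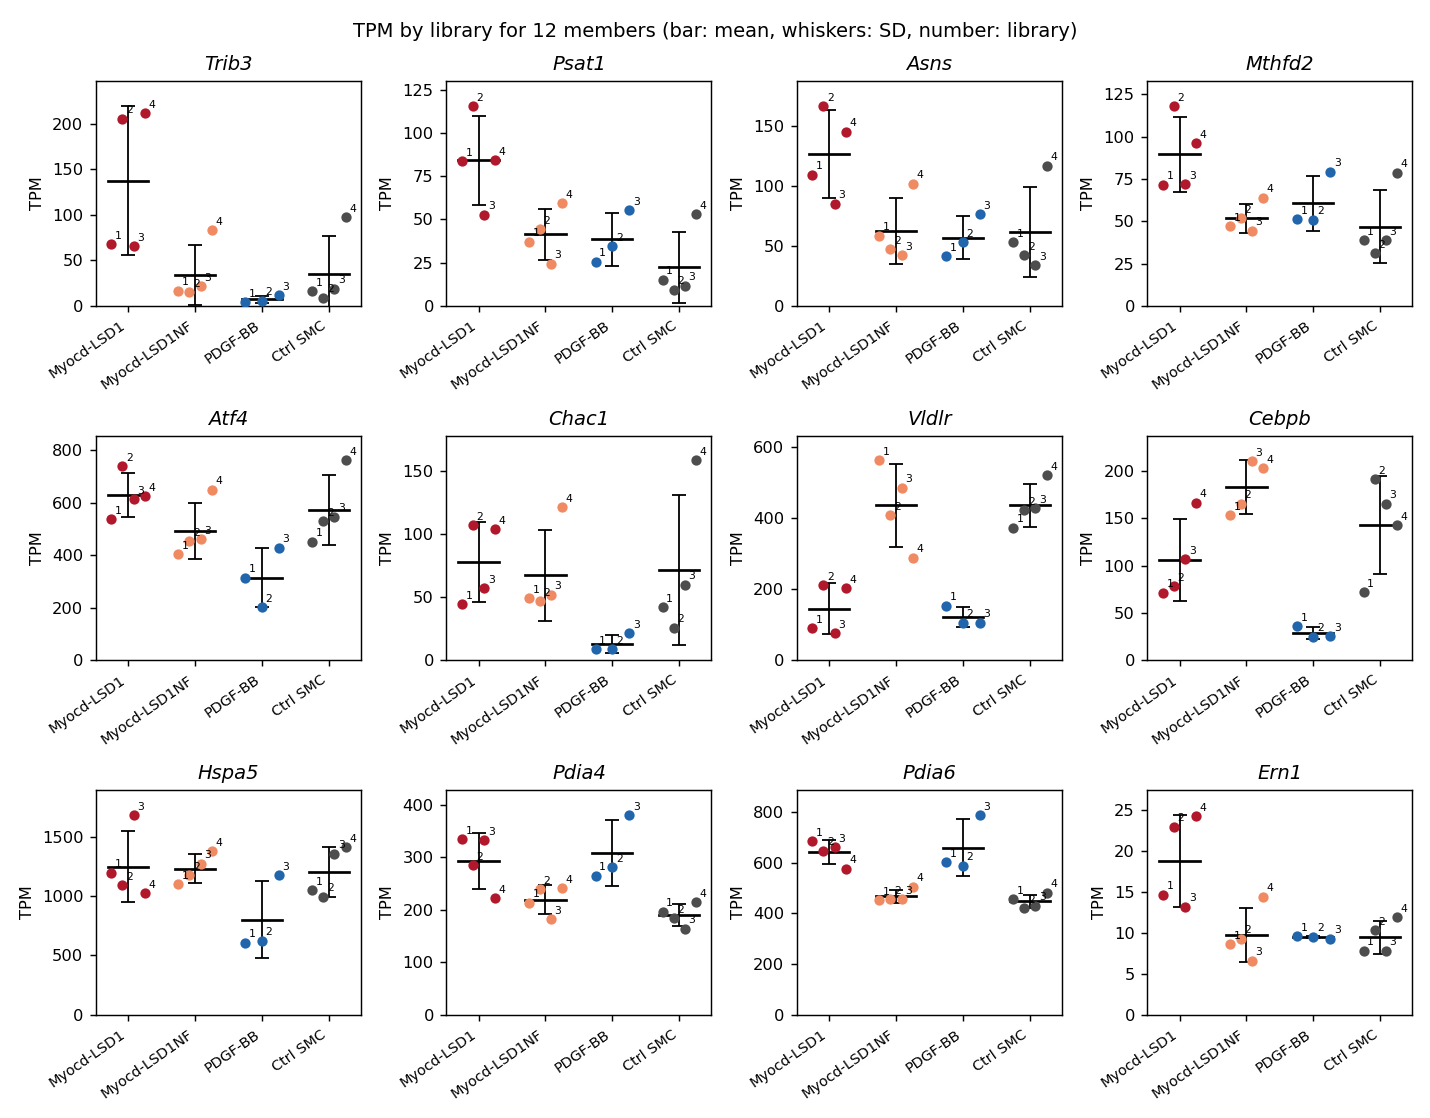
TPM (y axis, from 0) of 12 genes in each library by group, with bars for the mean, whiskers for the SD (n = 4, or 3 for PDGF-BB; whiskers are cut at 0) and numbers for libraries. Trib3 reaches 205.3 and 211.4 TPM in Myocd-LSD1 2 and 4, Ctrl SMC 4 is the highest control for Trib3, Psat1, Asns, Mthfd2 and Chac1, and Cebpb and Chac1 are low in all 3 PDGF-BB libraries.

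The second comparison set SMC given PDGF-BB for 24 h against Ctrl SMC. Atf4, Ddit3, Chac1, Cebpb, Vldlr and Nupr1 of the ATF4 branch fell, while its other 10 genes, among them Trib3, Atf5 and the serine and folate enzymes, did not pass the test. Of the ER chaperone branch, Hsp90b1, Pdia4 and Pdia6 rose, 10 genes did not pass, and Hspa5 was called lower in a call lost in 11 of the 15 fits that left out 1 library. Of the 34 genes 3 rose and 7 fell, or 29.4%, where 27.7% of all tested genes were called. Falls made up 20.6% of the 34 genes, against 8.5% of all genes, and rises 8.82%, against 19.2%. The shares of all genes moved with scaling: of 12207 genes, 1037 were lower and 2347 higher as deposited, 1750 and 1685 after median-of-ratios scaling, and 1630 and 2050 after quantile normalization. Of the 34 genes, 9 were lower and 3 higher after median-of-ratios scaling, and 9 and 4 after quantile normalization. The median log2 fold change of all genes was 0.12 in this comparison, against -0.01 after median-of-ratios scaling and 0.02 after quantile normalization. Changes are therefore also given relative to 0.12. The comparison shares its 4 controls with those of both lines.

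In the ATF4 branch 0 of 16 genes rose and 6 fell (37.5%), where 19.2% and 8.5% of all genes did. The median log2 fold change was -0.51. Atf4 had 314.8, 201.6 and 427.9 TPM in PDGF-BB, against 451, 528.1, 546.1 and 760 TPM in Ctrl SMC. All PDGF-BB values were below all controls, and Atf4 fell by 0.90 ± 0.23 (-1.02 relative to the median of all genes, adjusted p = 0.0111). Ddit3 had 36.5, 31.2 and 45.7 TPM in PDGF-BB, against 61.6, 63.6, 65 and 126.1 TPM in Ctrl SMC. It fell by 0.99 ± 0.32 (-1.12 relative to the median, adjusted p = 0.0305), without overlap. Chac1 had 8.54, 8.57 and 21.4 TPM in PDGF-BB, against 41.8, 25.8, 59.7 and 158.3 TPM in Ctrl SMC. Its fall of 2.18 ± 0.53 (-2.31 relative to the median, adjusted p = 0.00741) was a ratio of means of 0.18. Cebpb had 35.9, 24.8 and 25.5 TPM in PDGF-BB, against 72, 191.5, 165.7 and 142.9 TPM in Ctrl SMC, and fell by 2.21 ± 0.31 (-2.33 relative to the median, adjusted p = 0.000201). Vldlr had 153.6, 105.8 and 106.1 TPM in PDGF-BB, against 373.2, 422, 428.3 and 520.1 TPM in Ctrl SMC, and fell by 1.84 ± 0.33 (-1.97 relative to the median, adjusted p = 0.00101). Nupr1 had 1078.1, 851.5 and 889.5 TPM in PDGF-BB, against 1421.4, 1861.0, 1264.0 and 1351.2 TPM in Ctrl SMC, and fell by 0.64 ± 0.18 (-0.77 relative to the median, adjusted p = 0.0181). None of these groups overlapped. Trib3 had 4.09, 5.56 and 11.7 TPM in PDGF-BB, against 16, 9.05, 18.9 and 97 TPM in Ctrl SMC. Its log2 fold change of -1.68 ± 0.73 missed the threshold (adjusted p = 0.1). PDGF-BB 3 lay above Ctrl SMC 2, and the controls were spread widely. Atf5 averaged 105.9 ± 12.8 TPM in PDGF-BB and 161.3 ± 68.7 TPM in Ctrl SMC (-0.52 ± 0.39, adjusted p = 0.341).

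No serine, folate or asparagine enzyme of the branch was called with PDGF-BB. Psat1 had 25.4, 34.5 and 55.3 TPM in PDGF-BB, against 15.1, 9.21, 11.5 and 53 TPM in Ctrl SMC (log2 fold change 1.04 ± 0.47, adjusted p = 0.116). Phgdh averaged 120.5 ± 14.9 TPM in PDGF-BB and 85.8 ± 22.7 TPM in Ctrl SMC (0.51 ± 0.20, adjusted p = 0.0649). Mthfd2 had 51.3, 51 and 79.3 TPM in PDGF-BB, against 38.6, 31.1, 38.7 and 78.7 TPM in Ctrl SMC (0.43 ± 0.27, adjusted p = 0.257). Asns had 41.4, 53 and 76.2 TPM in PDGF-BB, with overlap on all sides and a log2 fold change of 0.01 ± 0.38 (95% interval -0.81 to 0.83, adjusted p = 0.986). Psph and Shmt2 were at 0.10 and 0.17. With Ctrl SMC 4 left out, Psat1, Phgdh and Mthfd2 were called higher, and Ddit3 (-0.75, adjusted p = 0.0841) and Hspa5 (-0.56, adjusted p = 0.113) were no longer called. The count was then 6 higher and 5 lower, where all genes had 1957 and 992.

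No sensor was called with PDGF-BB. Ern1 had 9.6, 9.54 and 9.3 TPM in PDGF-BB, inside the control range, and Xbp1 had 121.5, 119.1 and 160.5 TPM. Their log2 fold changes were 0.02 ± 0.24 and 0.10 ± 0.14. Eif2ak3 and Atf6 were at 0.04 ± 0.10 and 0.11 ± 0.19.

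Of 14 chaperone genes 3 rose and 1 fell (21.4% and 7.14%), near the 19.2% and 8.5% of all genes. The median log2 fold change was 0.16, where that of all genes was 0.12. Hsp90b1, the ER Hsp90, had 879.1, 828.7 and 1256.7 TPM in PDGF-BB, against 624, 596.4, 600.4 and 754.1 TPM in Ctrl SMC. It rose by 0.60 ± 0.17 (0.47 relative to the median of all genes, adjusted p = 0.0148) with no overlap. Pdia4 had 264.7, 280.5 and 380.4 TPM in PDGF-BB, against 196.1, 183.7, 164.1 and 214 TPM in Ctrl SMC, and rose by 0.69 ± 0.16 (0.56 relative to the median, adjusted p = 0.00651). Pdia6 averaged 660 ± 111.5 TPM in PDGF-BB and 446.9 ± 27.5 TPM in Ctrl SMC and rose by 0.55 ± 0.11 (0.43 relative to the median, adjusted p = 0.0024). Hspa5 had 606.7, 622.8 and 1175.9 TPM in PDGF-BB, against 1050.5, 994.8, 1355.7 and 1412.6 TPM in Ctrl SMC. PDGF-BB 1 and 2 were below all controls and PDGF-BB 3 inside their range. The call of its fall by 0.64 ± 0.23 (-0.76 relative to the median, adjusted p = 0.0486) was lost in 11 of the 15 fits that left out 1 library (adjusted p = 0.0508 to 0.19). It held only without Myocd-LSD1 3, Myocd-LSD1 4, PDGF-BB 3 or Ctrl SMC 2. Herpud1 had 115.1, 107.4 and 100.2 TPM in PDGF-BB, all below the lowest control of 123.7 TPM, yet missed the threshold (-0.49 ± 0.18, adjusted p = 0.0541). Dnajb9 had 27.2, 23 and 24.9 TPM in PDGF-BB, all below the lowest control of 29.9 TPM (-0.41 ± 0.17, adjusted p = 0.0814). Both were called lower under median-of-ratios scaling and quantile normalization, where 9 genes fell. The 8 genes left (Pdia3, Calr, Canx, Dnajc3, Sdf2l1, Creld2, Manf and Hyou1) had log2 fold changes between -0.16 and 0.40 and none passed.

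Other calls of this comparison turned on single libraries. Atf4 was lost without PDGF-BB 2 (adjusted p = 0.0693) and Hsp90b1 without PDGF-BB 3 (0.0919). Ddit3 was lost without PDGF-BB 1, PDGF-BB 2 or Ctrl SMC 4 (0.0731 to 0.115), and Nupr1 without PDGF-BB 2, PDGF-BB 3 or Ctrl SMC 2 (0.0519 to 0.0755). Without PDGF-BB 2 the count was 3 higher and 3 lower (all genes 1610 and 674). Without PDGF-BB 3 it was 2 higher and 6 lower (all genes 1407 and 730). Chac1, Vldlr, Cebpb, Pdia4 and Pdia6 were called in each of the 15 fits.

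**Figure D4:**
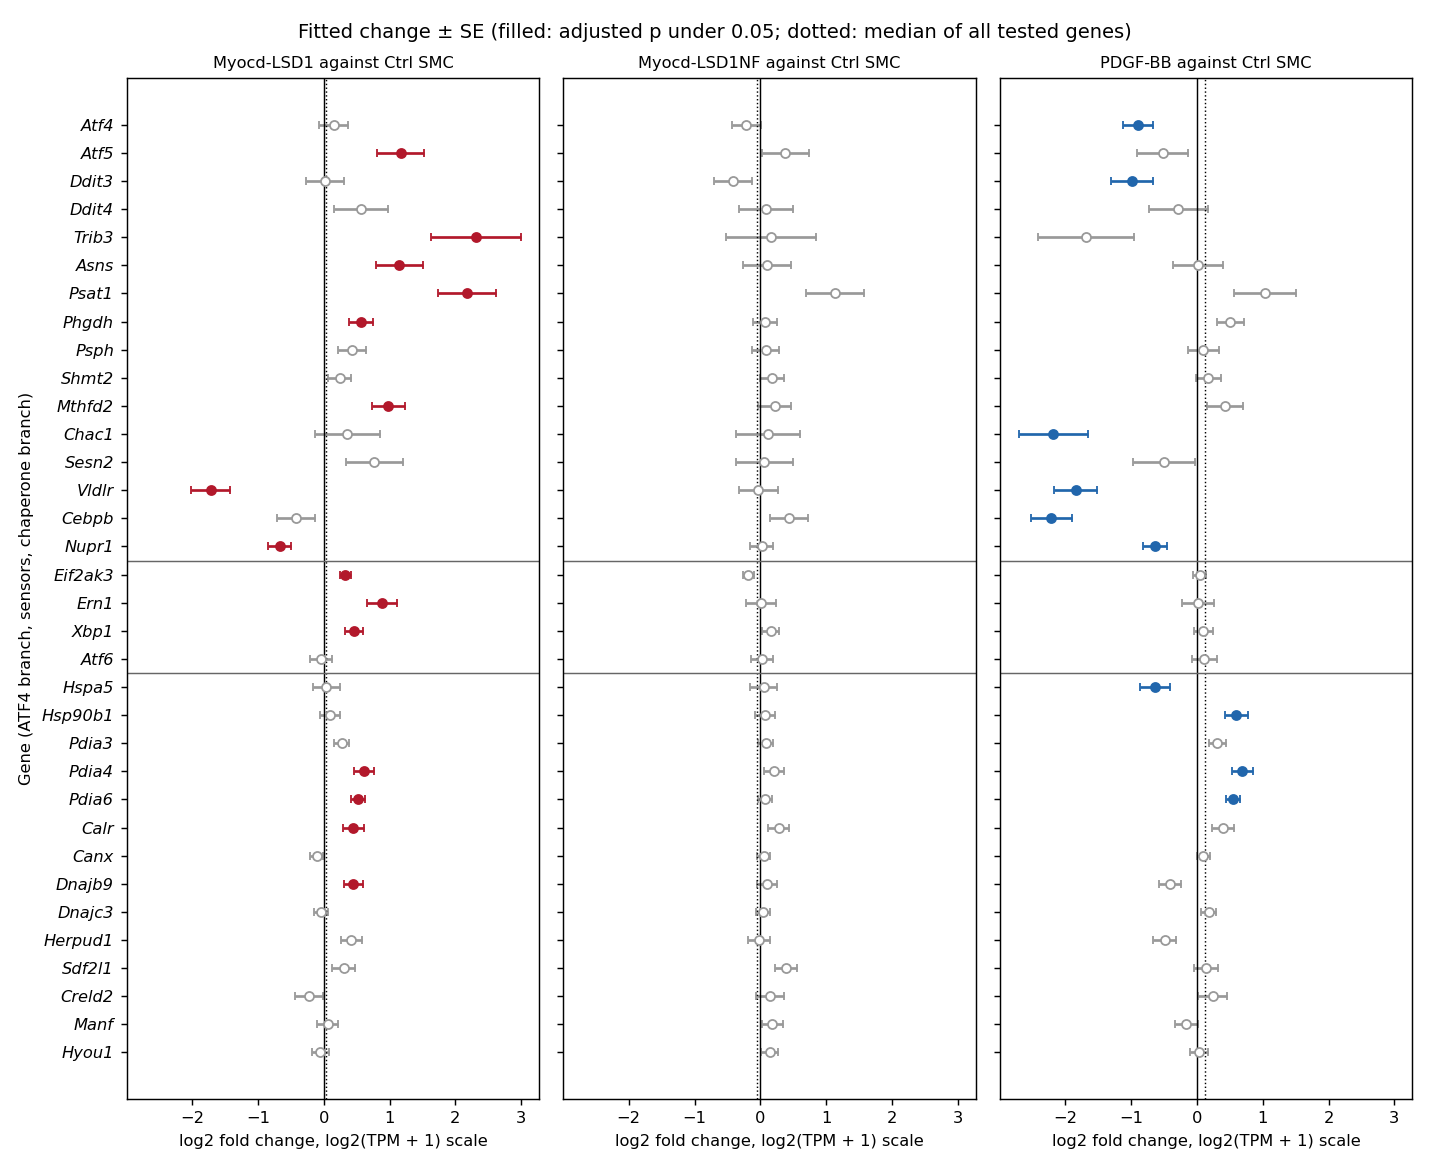
Log2 fold changes on the log2(TPM + 1) scale (x axis, ± SE) of the 34 genes (rows, by branch) for Myocd-LSD1, Myocd-LSD1NF and PDGF-BB against Ctrl SMC, filled where the adjusted p was under 0.05, with a dotted line at the median of all tested genes. The calls are 13 higher and 2 lower for Myocd-LSD1, 0 for Myocd-LSD1NF, and 3 higher and 7 lower for PDGF-BB; the panels share the same 4 controls.

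The Myocd-LSD1NF line was set against Ctrl SMC in the same way. By limma 0 of the 34 genes were called in either direction, where 2.21% of all tested genes were (0.475% higher and 1.74% lower). Among the 34, 2 genes (Psat1 and Sdf2l1) had an unadjusted p under 0.05, as had 15.7% of all genes. No other tool was run, and limma with array weights called Psat1. Psat1 had 37, 44.4, 24.4 and 59.3 TPM in Myocd-LSD1NF, against 15.1, 9.21, 11.5 and 53 TPM in Ctrl SMC. Every Myocd-LSD1NF library was above 3 of the 4 controls, and the log2 fold change was 1.14 ± 0.44 (95% interval 0.21 to 2.08, adjusted p = 0.212). Without Ctrl SMC 4 it was called. Sdf2l1, a member of an ER chaperone complex, averaged 26.9 ± 3.06 TPM in Myocd-LSD1NF and 20.3 ± 1.85 TPM in Ctrl SMC, with no overlap (0.39 ± 0.17, adjusted p = 0.272).

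The other members of both branches overlapped the controls, apart from Calr. Atf4 had 402.9, 452.7, 460.7 and 648.2 TPM in Myocd-LSD1NF, Ddit3 had 40.5, 57.2, 49.3 and 85.4 TPM, and Trib3 had 16.7, 15, 21.2 and 83.2 TPM. In each of these Myocd-LSD1NF 4 was the highest of the group, as Ctrl SMC 4 was of the controls. Asns had 58.3, 47.4, 42 and 101.9 TPM, Mthfd2 47, 51.8, 44.5 and 63.8 TPM and Chac1 49.3, 47, 52 and 121.2 TPM in Myocd-LSD1NF. Atf5 had 177.3, 150.6, 151.8 and 377.2 TPM in this line. Vldlr had 562.2, 407.9, 485.9 and 288.5 TPM, Cebpb 153.2, 165.6, 210.6 and 203.3 TPM and Nupr1 1525.9, 1234.8, 1400.9 and 1823.2 TPM. Vldlr is thus a gene in which Myocd-LSD1NF 4 was the lowest. Among sensors and chaperones, Ern1 had 8.63, 9.3, 6.62 and 14.4 TPM and Xbp1 117.7, 134.9, 144.4 and 157.8 TPM in Myocd-LSD1NF. Hspa5 had 1101.4, 1176.7, 1272.7 and 1376.7 TPM, and Hsp90b1 656.8, 709.5, 619.2 and 716.7 TPM. Pdia4 had 213.3, 239.4, 182.1 and 241.3 TPM, Dnajb9 34, 34.4, 30.3 and 47.3 TPM and Herpud1 137.2, 135.2, 136.2 and 196.6 TPM. Apart from Psat1, log2 fold changes of the 34 genes ran between -0.42 for Ddit3 and 0.43 for Cebpb.

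Set directly against Myocd-LSD1NF, the Myocd-LSD1 line had 6 of the 34 genes higher and 3 lower, or 26.5%, where 31.8% of all tested genes were called. Rises were 17.6% of the 34 genes, against 19.1% of all, and falls 8.82%, against 12.7%, so the shares lay near those of all genes. The genes that rose were Trib3 (2.14 ± 0.68, adjusted p = 0.0253), Asns (1.05 ± 0.36, 0.0357), Mthfd2 (0.76 ± 0.25, 0.0314), Ern1 (0.88 ± 0.23, 0.00803), Eif2ak3 (0.50 ± 0.09, 0.000741) and Pdia6 (0.46 ± 0.10, 0.00343). For Mthfd2 the lowest Myocd-LSD1 value, 71.6 TPM, lay above the highest Myocd-LSD1NF value, 63.8 TPM. For Trib3, Asns and Ern1 the fourth Myocd-LSD1NF library reached the Myocd-LSD1 range. Vldlr fell by 1.69 ± 0.30 (adjusted p = 0.000658), Nupr1 by 0.69 ± 0.17 (0.00626) and Cebpb by 0.85 ± 0.29 (0.0346). Psat1 (1.03 ± 0.44, adjusted p = 0.0885), Phgdh (0.49 ± 0.18, 0.0516) and Pdia4 (0.41 ± 0.15, 0.0517) missed the threshold, and Hspa5 was at -0.00 ± 0.21 (0.991). With Myocd-LSD1 2 and 4 both left out, 0 of 16 ATF4 branch genes were higher and 3 were lower, and Eif2ak3, Pdia4 and Pdia6 were higher. Of all 12207 genes, 2063 rose and 936 fell in that fit. Under median-of-ratios scaling Trib3 was the only ATF4 branch gene called higher, with Asns at 0.97 (adjusted p = 0.0561) and Mthfd2 at 0.68 (0.0681). Vldlr, Nupr1, Eif2ak3, Ern1 and Pdia6 were called in each of the 15 fits that left out 1 library. Trib3 and Mthfd2 were lost without Myocd-LSD1 2, Myocd-LSD1 4 or any of Myocd-LSD1NF 1 to 3 (adjusted p = 0.0575 to 0.0992), and Asns without these or Myocd-LSD1 1 (0.0544 to 0.103). Cebpb was lost without Myocd-LSD1 1 or 2 or Myocd-LSD1NF 2, 3 or 4 (0.0517 to 0.105). Without Myocd-LSD1 2, Myocd-LSD1NF 2 or Myocd-LSD1NF 3, 3 genes were higher and 2 lower. All genes then had, in that order, 1997 and 1148, 2120 and 1240, and 1775 and 1424.

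Set against PDGF-BB, Myocd-LSD1 had 12 of the 34 genes higher and 1 lower, or 38.2%, where 31.1% of all tested genes were called. Rises were 35.3% of the 34 genes, against 10.6% of all, and falls 2.94%, against 20.5%. In the ATF4 branch 7 of 16 were higher and 0 lower, with a median log2 fold change of 1.03, where that of all genes was -0.10. Trib3 differed most, with 67.5, 205.3, 65.4 and 211.4 TPM in Myocd-LSD1, against 4.09, 5.56 and 11.7 TPM in PDGF-BB (3.99 ± 0.73, adjusted p = 0.000888). Chac1 was higher by 2.54 ± 0.53 (adjusted p = 0.00216), Cebpb by 1.79 ± 0.31 (0.000623), Atf5 by 1.69 ± 0.39 (0.00422), Asns by 1.14 ± 0.38 (0.0359), Atf4 by 1.05 ± 0.23 (0.0033) and Ddit3 by 1.01 ± 0.32 (0.0253). None of these groups overlapped. Vldlr and Nupr1, which fell in both groups against the shared controls, were at 0.12 ± 0.33 (95% interval -0.57 to 0.82) and -0.03 ± 0.18 (-0.42 to 0.36). Phgdh, Shmt2, Psph, Mthfd2 and Psat1 were at 0.05, 0.08, 0.33, 0.56 and 1.13 and did not pass. Ern1 was higher by 0.87 ± 0.24 (adjusted p = 0.0135) and Eif2ak3 by 0.29 ± 0.10 (0.0365), while Xbp1 and Atf6 did not pass. Without Myocd-LSD1 2 and 4, Ern1 (0.51, adjusted p = 0.192) and Eif2ak3 (0.27, 0.163) were not called. Ern1 was not called with no filter on low genes either. Under median-of-ratios scaling Xbp1 was called higher (0.47, adjusted p = 0.0247).

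In the chaperone branch, Herpud1 (0.90 ± 0.18, adjusted p = 0.00147), Dnajb9 (0.85 ± 0.17, 0.00138) and Hspa5 (0.68 ± 0.23, 0.0338) were higher in Myocd-LSD1 than in PDGF-BB, and Hsp90b1 (-0.51 ± 0.17, 0.0296) was lower. Herpud1 had 165.7, 204.1, 203.1 and 242 TPM in Myocd-LSD1, against 115.1, 107.4 and 100.2 TPM in PDGF-BB. Hsp90b1 had 778.7, 610.3, 828.6 and 550.4 TPM in Myocd-LSD1, against 879.1, 828.7 and 1256.7 TPM in PDGF-BB. Pdia3, Pdia4 and Pdia6 were at -0.04 ± 0.13, -0.07 ± 0.16 and -0.03 ± 0.11 and did not pass. With Myocd-LSD1 2 and 4 both left out, 7 genes were higher (Atf4, Trib3, Chac1, Cebpb, Hspa5, Dnajb9 and Herpud1) and 0 lower, where all genes had 939 and 1303. Leaving out single libraries, the calls of Ddit3, Asns, Eif2ak3, Hspa5 and Hsp90b1 were each lost at least once. Ddit3 and Asns were lost without Myocd-LSD1 2 or 4 or PDGF-BB 1 or 2 (adjusted p = 0.0665 to 0.135), Eif2ak3 without these or Myocd-LSD1 1 (0.0534 to 0.127), Hspa5 without Myocd-LSD1 1 or 3 or PDGF-BB 1 or 2 (0.05 to 0.15) and Hsp90b1 without Myocd-LSD1 2 or 4 or PDGF-BB 3 (0.0811 to 0.168).

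Genes of the same pathways outside the 34 were counted from lists written from general knowledge. The main counts are set beside the shares of all tested genes called in the same comparison, and no count was tested against them. Of 11 tested amino acid transporters, 3 were higher and 2 lower in Myocd-LSD1 than in Ctrl SMC (27.3% and 18.2%, where all genes had 16.9% and 15.4%). They were Slc7a11, the cystine exchanger (1.21 ± 0.43), Slc38a2 (0.55 ± 0.16) and Slc1a4 (0.47 ± 0.17), carriers of neutral amino acids, and on the lower side Slc38a1 (-1.07 ± 0.18), of the same carrier family. Slc7a11 averaged 4.68 ± 1.11 TPM in Myocd-LSD1, 7.06 ± 2.9 TPM in PDGF-BB and 1.95 ± 2.41 TPM in Ctrl SMC, and was higher with PDGF-BB too (1.68 ± 0.46). The only other transporter called with PDGF-BB was Slc3a2, its partner chain (-0.57 ± 0.17). Slc38a1 fell in Myocd-LSD1NF as well (-1.25 ± 0.18), to 0.268 ± 0.199 TPM, against 2 ± 0.441 TPM in Ctrl SMC, and was the only gene of these lists called in that line. It averaged 0.435 ± 0.234 TPM in Myocd-LSD1 and 1.74 ± 0.403 TPM in PDGF-BB. Slc38a1 thus passed the filter only through PDGF-BB and Ctrl SMC. Its calls stay in the counts of this list but are not read as results. Of 20 tRNA synthetases, 7 were higher and 0 lower in Myocd-LSD1 than in Ctrl SMC (35% higher, where all genes had 16.9%), led by Eprs (0.94 ± 0.22), Cars (0.65 ± 0.17), Yars (0.62 ± 0.17) and Qars (0.46 ± 0.08). With PDGF-BB 2 were higher, Kars (0.50 ± 0.08) and Qars (0.28 ± 0.08), and 0 lower, or 10% higher, where all genes had 19.2%. Against Myocd-LSD1NF, 5 were higher in Myocd-LSD1 and 0 lower (25% higher, where all genes had 19.1%), led by Eprs (0.86 ± 0.22), Yars (0.48 ± 0.17), Qars (0.42 ± 0.08) and Tars (0.39 ± 0.13). The only transporter called there was Slc38a2 (0.59 ± 0.16). Against PDGF-BB, Eprs (0.72 ± 0.24) and Sars (0.60 ± 0.11) were higher in Myocd-LSD1 and Kars (-0.58 ± 0.08) lower, as was the transporter Slc43a1 (-0.89 ± 0.17). Slc38a1 (-0.94 ± 0.20) was also called lower, with the limit given above. Slc3a2 (0.87 ± 0.17) and Slc38a2 (0.62 ± 0.18) were higher.

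Of 19 other enzymes of amino acid and one-carbon metabolism, 4 were higher and 3 lower in Myocd-LSD1 than in Ctrl SMC, or 21.1% and 15.8%, near the 16.9% and 15.4% of all genes. Gpt2, which makes alanine in mitochondria, averaged 19 ± 4.31 TPM in Myocd-LSD1 and 4.59 ± 2.37 TPM in Ctrl SMC (1.90 ± 0.25, adjusted p = 4.27e-05). Mthfd1l, a mitochondrial folate enzyme, averaged 24 ± 3.6 and 7.96 ± 3.12 TPM (1.53 ± 0.24), and Pycr1, of proline synthesis, 48.1 ± 15.8 and 21.7 ± 6.18 TPM (1.10 ± 0.25). With PDGF-BB 8 of the 19 were higher and 2 lower (42.1% and 10.5%, where all genes had 19.2% and 8.5%), among them Mthfd1l (1.46 ± 0.26), Tyms, of thymidine synthesis (1.35 ± 0.22), and Gpt2 (1.29 ± 0.27). Against PDGF-BB, 1 was higher in Myocd-LSD1 (Pycr1, 1.18 ± 0.27) and 9 lower (47.4%, where all genes had 20.5%), among them Aldh1l2 (-2.17 ± 0.69) and Tyms (-1.32 ± 0.22). Against Myocd-LSD1NF, Gpt2 (1.15 ± 0.25), Mthfd1l (1.13 ± 0.24) and Pycr1 (0.95 ± 0.25) were higher in Myocd-LSD1, and 2 were lower.

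Of 14 genes of translation control and further stress factors, 4 were higher and 1 lower in Myocd-LSD1 than in Ctrl SMC (28.6% and 7.14%, where all genes had 16.9% and 15.4%). Atf3, a factor induced by ATF4 and by many stresses, averaged 247.3 ± 107.2 TPM in Myocd-LSD1, 83.2 ± 25.6 TPM in Myocd-LSD1NF, 2.53 ± 1.08 TPM in PDGF-BB and 86.3 ± 61.3 TPM in Ctrl SMC. It rose by 1.90 ± 0.60 in Myocd-LSD1 (adjusted p = 0.0247) and fell by 4.18 ± 0.65 with PDGF-BB (adjusted p = 0.000402). Eif4ebp1, an inhibitor of cap-dependent translation (0.74 ± 0.15), and Jdp2, a factor of the AP-1 family (0.68 ± 0.17), rose in Myocd-LSD1, and Gdf15, a secreted stress factor, fell (-1.40 ± 0.41). With PDGF-BB 3 were higher and 4 lower (21.4% and 28.6%, where all genes had 19.2% and 8.5%). Ppp1r15a encodes GADD34, which has eIF2 dephosphorylated. It averaged 51.4 ± 20.5 TPM in PDGF-BB and 272 ± 115.2 TPM in Ctrl SMC and fell by 2.38 ± 0.35 (adjusted p = 0.000284). Gdf15 (-1.31 ± 0.45) and Stc2 (-0.77 ± 0.25) also fell. Stc2 is near the floor, at 0.217 ± 0.172 TPM in PDGF-BB and 1.19 ± 0.91 TPM in Ctrl SMC. It reached at most 0.4 TPM in PDGF-BB and 0.47 TPM in Myocd-LSD1NF. It thus passed the filter only through Myocd-LSD1 and Ctrl SMC. Its calls stay in the counts of this list but are not read as results. Against Myocd-LSD1NF, 5 were higher in Myocd-LSD1 and 0 lower (35.7% higher, where all genes had 19.1%). Among them were Jdp2 (0.61 ± 0.17), Eif2ak4, which encodes GCN2 (0.56 ± 0.12), and Eif4ebp1 (0.55 ± 0.15). The 5 also count Stc2 (1.19 ± 0.24), at 1.7 ± 0.339 TPM in Myocd-LSD1 and 0.188 ± 0.21 TPM in Myocd-LSD1NF. That call has the limit given above. Against PDGF-BB 6 were higher and 2 lower (42.9% and 14.3%, where all genes had 10.6% and 20.5%), led by Atf3 (6.08 ± 0.65) and Ppp1r15a (2.67 ± 0.35).

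Of 40 further genes of ER folding, degradation and export, 11 were higher and 2 lower in Myocd-LSD1 than in Ctrl SMC (27.5% and 5%, where all genes had 16.9% and 15.4%). Creb3l1, an ER-bound factor of the ATF6 type that drives collagen secretion, averaged 190.8 ± 87.1 TPM in Myocd-LSD1, 15.9 ± 13.2 TPM in Myocd-LSD1NF, 13.1 ± 3.11 TPM in PDGF-BB and 17.2 ± 19.1 TPM in Ctrl SMC. It rose by 3.72 ± 0.56 in Myocd-LSD1 (adjusted p = 0.000124). Ero1a, the oxidase that recharges disulfide isomerases, rose by 1.06 ± 0.18, and Ssr1, of the translocon, by 0.84 ± 0.20. Wfs1, an ER membrane protein, fell by 1.12 ± 0.17, to 32.4 ± 0.764 TPM in Myocd-LSD1, against 72.6 ± 14.5 TPM in Ctrl SMC. With PDGF-BB 10 were higher and 2 lower (25% and 5%, where all genes had 19.2% and 8.5%), led by Wfs1 (-1.10 ± 0.18), Ero1a (0.78 ± 0.20), Dnajc10 (0.70 ± 0.10) and Ssr1 (0.63 ± 0.21). Against Myocd-LSD1NF, 10 were higher in Myocd-LSD1 and 2 lower (25% and 5%, where all genes had 19.1% and 12.7%), led by Creb3l1 (3.63 ± 0.56), Ero1a (1.04 ± 0.18), Wfs1 (-0.83 ± 0.17) and Sec24d (0.65 ± 0.11). Against PDGF-BB 4 were higher and 3 lower (10% and 7.5%, where all genes had 10.6% and 20.5%), led by Creb3l1 (3.65 ± 0.60), Os9 (189.2 ± 32.2 TPM in Myocd-LSD1 and 93.2 ± 4.04 TPM in PDGF-BB), Dnajc10 (-0.69 ± 0.10) and Derl2 (-0.49 ± 0.11).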

How the data were processed

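RNA from starved rat aortic SMC was made into polyA-selected, stranded libraries (TruSeq), per the labels' protocols. The authors deposited 1 table of TPM, as the file name in the labels gives it, covering 15 libraries. For the aligner, the annotation and the genome build, nothing is given in the sources used here. TPM keep no read counts, so the depth behind a value is unknown and no counting interval was computed. The 4 columns of group means were not used, and 26 of the 32623 entries bear date-like names from a spreadsheet.

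The 34 genes were matched by symbol. Entries with at least 1 TPM in at least 3 libraries were tested on log2(TPM + 1) with limma 3.58.1 (R 4.3.3), using lmFit and eBayes with a trend, 1 mean per group and no replicate block. The tests were two-sided, and p-values were adjusted by Benjamini-Hochberg over 12207 genes in each of 5 comparisons. The steps were tested on simulated data. Libraries were grouped by title. Values of every library are given for Atf4, Ddit3, Xbp1, Hspa5 and each gene called at a change of 0.58 or more (log2) either way, and up to 4 called genes are named per pathway list and comparison. Some genes that this rule takes are not reported here. The 34 genes, the lists and the alternatives (pseudocounts of 0.1 and 5, other filters and scalings, array weights, compared groups alone, replicate block, libraries left out) were chosen with earlier results of these data known. Promoter windows came from RefSeq on GRCr8.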

Additional observations from a re-analysis of the deposited data

Results flagged for a closer look

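Single libraries lay far from the rest of their group, by the gap to the nearest other library as a share of the group's range (above Dixon's critical value for 4 libraries), for 14 of 102 combinations of a gene and a group. Chance gives about 1 in 20 for independent, normally distributed values. The values here are TPM without a log, of genes measured in the same libraries, so the 14 cannot be tested against that rate. The 3 PDGF-BB libraries could not be judged. In 6 of the 14 the library was Ctrl SMC 4, the highest control. These were Ddit3 (126.1 TPM, others 61.6 to 65), Trib3 (97 TPM, others 9.05 to 18.9), Psat1 (53 TPM, others 9.21 to 15.1), Psph (32.4 TPM, others 21.1 to 22.9), Mthfd2 (78.7 TPM, others 31.1 to 38.7) and Sesn2 (86.9 TPM, others 28.7 to 36.8).

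Myocd-LSD1NF 4 was the highest of its group for Atf5 (377.2 TPM, others 150.6 to 177.3), Trib3 (83.2 TPM, others 15 to 21.2), Psph (36.3 TPM, others 22.3 to 23) and Chac1 (121.2 TPM, others 47 to 52). The same held for Pdia6 (505.9 TPM, others 452.7 to 457) and Herpud1 (196.6 TPM, others 135.2 to 137.2). Myocd-LSD1NF 3 was the lowest for Hyou1 (141.6 TPM, others 167.1 to 170.9). Myocd-LSD1 3 was the highest for Xbp1 (209.1 TPM, others 154.5 to 160.7).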

How the results depend on the processing

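Of 47 gene values called in the 5 comparisons, 21 kept call and direction in all 25 other settings. The count of the 34 genes called in Myocd-LSD1 against Ctrl SMC (15) was 9 with no filter on low genes, 8 without Myocd-LSD1 2 and 4, and 9 to 16 when 1 library was left out (9 without Ctrl SMC 2). For Myocd-LSD1NF against Ctrl SMC (0) it was 1 with array weights and 0 to 1 when 1 library was left out. For PDGF-BB against Ctrl SMC (10) it was 5 with no filter and 6 to 11 when 1 library was left out. For Myocd-LSD1 against Myocd-LSD1NF (9) it was 5 with no filter, 20 with array weights and 5 to 13 when 1 library was left out. For Myocd-LSD1 against PDGF-BB (13) it was 8 with no filter, 20 with array weights, 7 without Myocd-LSD1 2 and 4, and 9 to 16 when 1 library was left out. With no filter more genes were tested and without libraries fewer samples, and the cause of the other shifts was not tested.

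Signs turned for values near 0 that were not called. Ddit3 in Myocd-LSD1 against Ctrl SMC was at -0.01 under median-of-ratios scaling, -0.47 without Myocd-LSD1 2 and 4, and -0.16 to 0.26 when 1 library was left out. Against Myocd-LSD1NF it was at -0.05 without Myocd-LSD1 2 and 4. Xbp1 with PDGF-BB was at -0.04 under median-of-ratios scaling and -0.04 to 0.18 when 1 library was left out. Hspa5, when 1 library was left out, ran from -0.11 to 0.13 in Myocd-LSD1 and -0.04 to 0.13 in Myocd-LSD1NF, each against Ctrl SMC. In Myocd-LSD1 against Myocd-LSD1NF it ran from -0.16 to 0.08, and was at 0.03 after quantile normalization and 0.21 without Myocd-LSD1 2 and 4.

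Of all tested genes, 270 were called in Myocd-LSD1NF against Ctrl SMC, against 139 with no filter, 110 when a mean of 5 TPM was required, 919 with array weights, 176 with these groups alone and 109 to 312 when 1 library was left out. Myocd-LSD1 against Ctrl SMC had 3936, against 3351 with no filter, 2984 without Myocd-LSD1 2 and 4, and 3253 to 4100 with 1 library left out. PDGF-BB against Ctrl SMC had 3384, against 2462 with no filter and 2137 (without PDGF-BB 3) to 3589 with 1 left out. Myocd-LSD1 against Myocd-LSD1NF had 3877, against 3038 with no filter, 5021 with array weights and 3145 to 4039 with 1 left out. Myocd-LSD1 against PDGF-BB had 3792, against 3175, 5552 and 2859 to 3986 likewise, and 2242 without Myocd-LSD1 2 and 4. Median-of-ratios scaling moved the split of higher to lower calls from 2347 and 1037 to 1685 and 1750 with PDGF-BB, from 2331 and 1546 to 2033 and 2141 in Myocd-LSD1 against Myocd-LSD1NF, from 1295 and 2497 to 1903 and 2021 in Myocd-LSD1 against PDGF-BB, and from 58 and 212 to 108 and 207 in Myocd-LSD1NF against Ctrl SMC.

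Whether replicate numbers pair the libraries was not settled. Deviations of same-numbered libraries correlated between -0.225 and 0.576, and those of other pairs between -0.322 and 0.316. The highest was Myocd-LSD1NF 3 with Ctrl SMC 3 (0.576), and Myocd-LSD1NF 4 with Ctrl SMC 4 had 0.301. Not every library correlated best with its own number, and a shared effect of the number was not tested. With the replicate block, 15 of the 34 genes were higher and 2 lower in Myocd-LSD1 against Ctrl SMC (all genes 2236 and 2010). In Myocd-LSD1NF it was 0 (all genes 82 and 260), and with PDGF-BB 5 higher and 8 lower (all genes 2369 and 1196). Myocd-LSD1 had 10 and 3 against Myocd-LSD1NF (all genes 2554 and 1678), and 13 and 1 against PDGF-BB (all genes 1333 and 2386). Against PDGF-BB, the block took the call from Eif2ak3 (0.29, adjusted p = 0.0581) and gave one to Xbp1 (0.33, 0.0316). TPM without counts leave unknown how precisely low genes were measured.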
